A study of Mus musculus with 14 samples.

Results

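The regions described here are 16699 windows of 500 bases in the mouse genome that were about equally open in the 2 epithelial stem cell populations of young back skin, hair follicle stem cells (HFSC) and epidermal stem cells (EpdSC). They were chosen from 5267565 adjoining windows on chromosomes 1 to 19 and X, of which they made up 0.317%. Openness was measured by ATAC-seq, in which a transposase inserts sequencing adapters into accessible DNA, and the signal of a window was its count after the library's total in the windows used had been set to 1000000 (CPM). A window was chosen when it held at least 4 CPM in the young EpdSC library and in the young HFSC library and when these levels lay within 1.5-fold of each other. The young levels and their ratio therefore made the choice and are given only as a description, while the libraries of aged mice and the RNA played no part in it.

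The samples came from the back skin of female mice, 2 months old (young) or 24 months old (aged), from which cells were freed with trypsin and sorted by flow cytometry. Both populations were sorted for absence of lineage markers and for a high level of integrin α6; in addition, HFSC had CD34 on their surface but no Sca1, and EpdSC had Sca1 but no CD34. Each population had 1 ATAC-seq library and 2 RNA-seq libraries at each age, and 2 single-cell libraries were not used here. The labels give no transgene or treatment, name the strain as C57B8 in 1 field and C57B6 in another, and do not say whether replicate libraries came from separate animals, so a p-value for RNA speaks of the spread between the sequenced libraries, and that spread may be technical. The RNA of Cd34 and Ly6a followed the gates: Cd34, at 1807 and 1715 RNA CPM in young HFSC, was at 0.588 and 1.81 in young EpdSC, and Ly6a, which encodes Sca1, was at 218 and 133 RNA CPM in young EpdSC and at 0.399 and 0.629 in young HFSC. Itga6, which encodes the integrin chain on which both were gated alike, was at 2108 and 1633 RNA CPM in young EpdSC and at 492 and 503 in young HFSC (log2 difference 1.91, edgeR adjusted p = 6.52e-06).

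HFSC rest in the bulge of the hair follicle and rebuild the growing hair, whereas EpdSC sit in the basal layer between the follicles and renew the stratified epidermis. Both are keratinocytes attached to a basement membrane, and they share a set of basal keratins, integrins and transcription factors. In mammalian genomes, the starts of broadly used genes often lie in CpG islands, stretches rich in C, G and the dinucleotide CpG that stay largely unmethylated and free of nucleosomes in most tissues. Enhancers, which tune a gene from a distance, are more often open in only some cell types.

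The ATAC-seq libraries differed in depth and in the share of counts in open chromatin. They held 37322834 counts in the windows used for young EpdSC, 26169738 for young HFSC, 22933001 for aged EpdSC and 8243611 for aged HFSC. Windows with at least 4 CPM in either young library numbered 49554 and are called open windows below. They took 29.0, 30.4 and 30.6% of the counts in the first 3 libraries but 15.6% in aged HFSC, so that library stood apart before any region was compared. Values that include it are therefore given as CPM and also after TMM scaling (trimmed mean of M values), which takes most of the 53390 windows open in any library to be alike. The TMM factors were 1.199, 1.12, 1.26 and 0.593 in the same order. With 1 library per group, no ATAC-seq difference has a replicate check, and intervals cover counting error only.

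The promoters at or beside 3 of the strongest windows are printed as examples. Each line holds the 250 bases before a listed start in the RefSeq annotation (GRCm38.p6, which corresponds to mm10), read 5′ to 3′ on the gene's own strand. Capitals mark exact matches, on either strand, to 10 short motifs that are spelled out with their frequencies below.
Ppp2r1a: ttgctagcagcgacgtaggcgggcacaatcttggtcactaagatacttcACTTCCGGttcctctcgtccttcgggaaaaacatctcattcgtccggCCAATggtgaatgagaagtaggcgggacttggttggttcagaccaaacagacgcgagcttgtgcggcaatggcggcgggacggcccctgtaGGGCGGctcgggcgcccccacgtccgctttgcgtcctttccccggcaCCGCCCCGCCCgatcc
Sp1: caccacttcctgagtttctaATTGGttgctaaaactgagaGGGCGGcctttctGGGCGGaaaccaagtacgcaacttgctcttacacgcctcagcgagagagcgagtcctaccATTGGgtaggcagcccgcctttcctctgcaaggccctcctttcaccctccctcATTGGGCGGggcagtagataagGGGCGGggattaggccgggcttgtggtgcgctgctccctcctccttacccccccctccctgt
Hsp90b1: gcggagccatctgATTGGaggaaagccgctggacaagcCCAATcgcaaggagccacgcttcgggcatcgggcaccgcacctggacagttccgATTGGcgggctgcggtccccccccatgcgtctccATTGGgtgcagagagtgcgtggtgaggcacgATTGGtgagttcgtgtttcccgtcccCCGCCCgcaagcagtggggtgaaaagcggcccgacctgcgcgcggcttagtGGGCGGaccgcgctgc
Ppp2r1a (scaffold subunit of protein phosphatase 2A) lies at chr17:20945204-20945453 on the plus strand, Sp1 (a transcription factor that binds GC boxes) at chr15:102406066-102406315 on the plus strand, and Hsp90b1 (a chaperone of the endoplasmic reticulum) at chr10:86705445-86705694 on the minus strand. The capitals in Ppp2r1a are 3 GC boxes, 1 NF-Y match and 1 ETS match; in Sp1 they are 4 GC boxes and 3 NF-Y matches, 1 pair of which overlap, and in Hsp90b1 they are 2 GC boxes and 5 NF-Y matches. CpG dinucleotides numbered 25, 11 and 25. The chosen window contains the Ppp2r1a start but lies 316 bases from that of Sp1 and 57 bases from that of Hsp90b1. All printed bases of Sp1 and some of Hsp90b1 are outside the window.

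Shown next are 2 named genes with more RNA in EpdSC and 2 with more RNA in HFSC. Each has a chosen window within 1000 bases of its start. Mt2, one of the starts with the least signal in aged HFSC relative to aged EpdSC, is added.
Man1c1: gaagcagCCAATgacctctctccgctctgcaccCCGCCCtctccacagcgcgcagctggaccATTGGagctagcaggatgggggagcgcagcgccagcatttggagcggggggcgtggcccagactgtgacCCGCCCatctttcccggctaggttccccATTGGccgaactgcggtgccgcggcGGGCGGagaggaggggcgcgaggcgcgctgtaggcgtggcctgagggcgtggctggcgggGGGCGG
Serpinb2: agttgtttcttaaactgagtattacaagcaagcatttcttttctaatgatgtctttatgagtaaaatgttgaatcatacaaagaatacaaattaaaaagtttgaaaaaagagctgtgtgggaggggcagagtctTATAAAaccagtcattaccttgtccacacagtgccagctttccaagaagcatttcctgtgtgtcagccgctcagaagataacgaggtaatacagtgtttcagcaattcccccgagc
Strip2: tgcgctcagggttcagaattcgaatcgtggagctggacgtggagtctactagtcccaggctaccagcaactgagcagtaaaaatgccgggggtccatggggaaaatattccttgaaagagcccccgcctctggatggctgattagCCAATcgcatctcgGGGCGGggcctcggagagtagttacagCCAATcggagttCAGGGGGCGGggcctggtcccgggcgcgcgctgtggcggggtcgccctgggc
Fgf18: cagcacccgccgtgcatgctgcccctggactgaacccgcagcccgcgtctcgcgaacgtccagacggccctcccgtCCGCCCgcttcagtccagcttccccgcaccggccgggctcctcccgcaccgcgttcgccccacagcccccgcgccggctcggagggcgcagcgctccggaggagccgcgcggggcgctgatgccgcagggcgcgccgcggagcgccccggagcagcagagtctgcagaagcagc
Mt2: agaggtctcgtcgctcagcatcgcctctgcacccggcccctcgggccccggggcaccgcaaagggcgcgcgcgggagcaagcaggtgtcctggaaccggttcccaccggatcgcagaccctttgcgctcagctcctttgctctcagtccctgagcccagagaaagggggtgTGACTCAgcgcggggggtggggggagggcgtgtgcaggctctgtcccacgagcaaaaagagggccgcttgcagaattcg
Man1c1 lies at chr4:134704291-134704540 on the minus strand, Serpinb2 at chr1:107511260-107511509 on the plus strand, Strip2 at chr6:29916763-29917012 on the plus strand, Fgf18 at chr11:33147401-33147650 on the minus strand and Mt2 at chr8:94172368-94172617 on the plus strand. The chosen window covers the start of Man1c1, Strip2 and Mt2. It lies 491 bases from that of Serpinb2 and 601 bases from that of Fgf18, so these starts are not inside a chosen window. All printed bases of Serpinb2 and Fgf18 are outside the window. Most of those of Strip2 are outside it too, including all its capitals, as are some of those of Man1c1 and Mt2. The Man1c1 promoter holds 4 GC boxes and 3 NF-Y matches, and that of Strip2 holds 2 of each and 1 CTCF core that overlaps a GC box. By contrast, the Serpinb2 promoter holds a TATA box, no GC box and 3 CpG, whereas that of Fgf18 holds 37 CpG and 1 GC box and that of Mt2 holds 21 CpG and 1 AP-1 match.

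The promoter sequences near the chosen windows were rich in CpG. The table of 300-base promoters (250 bases before to 50 after each start) held 32619 starts, and 8480 of them (26%) lay within 1000 bases of a chosen window. Median GC content was 62.3% at these starts, 53% over all starts and 49% at the 21064 starts with no open window within 1000 bases. The median number of CpG was 23, 7 and 4 in the same order. CpG-island-like composition, defined as a ratio of observed to expected CpG over 0.6 with GC content over 50%, was present at 77.7% of the starts near chosen windows, 33.5% of all starts and 13.2% of starts with no open window. It was present at 12.9% of the 232 starts that lay near a window 4-fold or more higher in young HFSC but near no chosen window, and at 29.9% of the 395 such starts for young EpdSC.

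Exact matches to 10 short motifs were counted on both strands of the 300-base promoters. The GC box GGGCGG, bound by SP and KLF factors, was in 69.0% of the promoters near chosen windows and in 35.9% of all promoters. The ETS motif CCGGAAGT was in 9.42% and 3.91%, the NRF1 motif GCGCATGCG in 4.45% and 1.75%, the CREB motif TGACGTCA in 3.61% and 1.80%, the YY1 motif AAGATGGCG in 3.49% and 1.404%, and the CTCF core CAGGGGGCG in 3.62% and 1.68%. The letters of these motifs all contain CpG. The E-box CACGTG was in 10.7% against 7.20%. The NF-Y motif CCAAT, which holds no CpG, was in 41.0% of promoters near chosen windows and in 37.6% of all. Less frequent near chosen windows than over all promoters were the TATA box TATAAA, at 5.88% against 13.7%, and the AP-1 motif TGACTCA, at 3.22% against 5.22%. In promoters near windows 4-fold or more higher in 1 population and near no chosen window, AP-1 letters were in 10.1% for EpdSC and 6.47% for HFSC. A match says only that the letters are present.

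**Figure D1:**
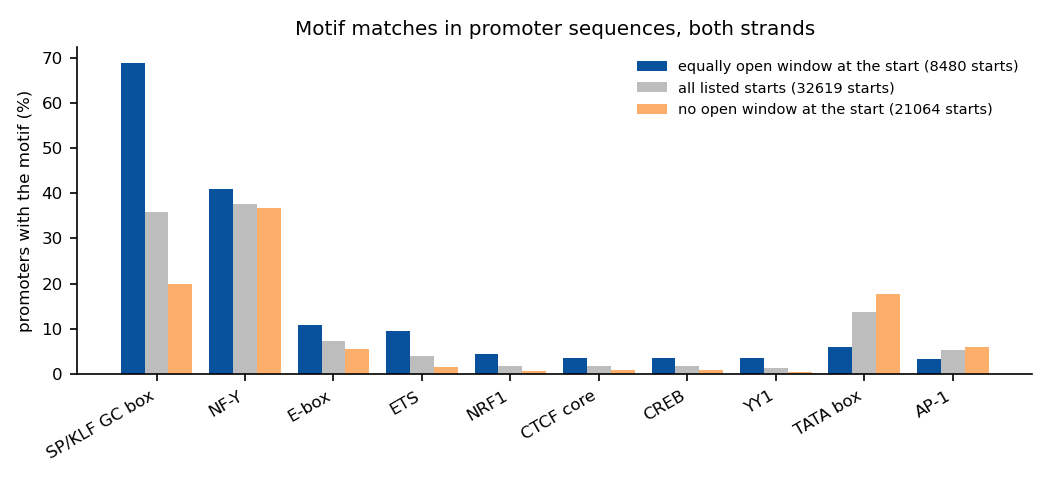
Share of 300-base promoters (%, vertical axis) that hold each exact motif on either strand (horizontal axis), for promoters with a chosen window within 1000 bases of the start, for all listed promoters and for promoters with no open window. The GC box stands at 69.0% near chosen windows and 35.9% over all promoters, while the TATA box and AP-1 letters run the other way.

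Most chosen windows lay at gene starts. Of the 16217 on chromosomes for which starts were listed, 9797 (60.4%, exact 95% binomial interval 59.7 to 61.2%) lay within 1000 bases of a listed start, and 5775 (35.6%) contained one. The share within 1000 bases was 35.6% for all open windows, 4.51% for the 6881 windows 4-fold or more higher in young HFSC, 9.28% for the 6219 windows 4-fold or more higher in young EpdSC and 2.69% for all windows. A start lay inside 1.72% of the HFSC-higher windows, 2.44% of the EpdSC-higher windows and 0.580% of all windows. The median distance to a listed start was 220 bases for the chosen windows, 31498 bases for HFSC-higher windows and 17661 bases for EpdSC-higher windows. Windows share genes and neighbours and are not replicates, so these shares are given without a test.

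The list of starts was incomplete, and a further 1663 chosen windows (10.3%) lay within 1000 bases of either end of an annotated gene for which no start was listed, which brought the share to 70.7%. The direction of those genes was not given, so an end may be the start or the finish. The remaining 4757 windows (29.3%) lay away from both kinds of site, and 60.9% of them were inside a gene body. The same remainder was 93.2% for HFSC-higher windows and 86.6% for EpdSC-higher windows. By distance to a listed start alone, 12.4% of the chosen windows lay between 1 and 10 kb away, 16.8% between 10 and 50 kb and 10.4% beyond 50 kb.

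**Figure D2:**
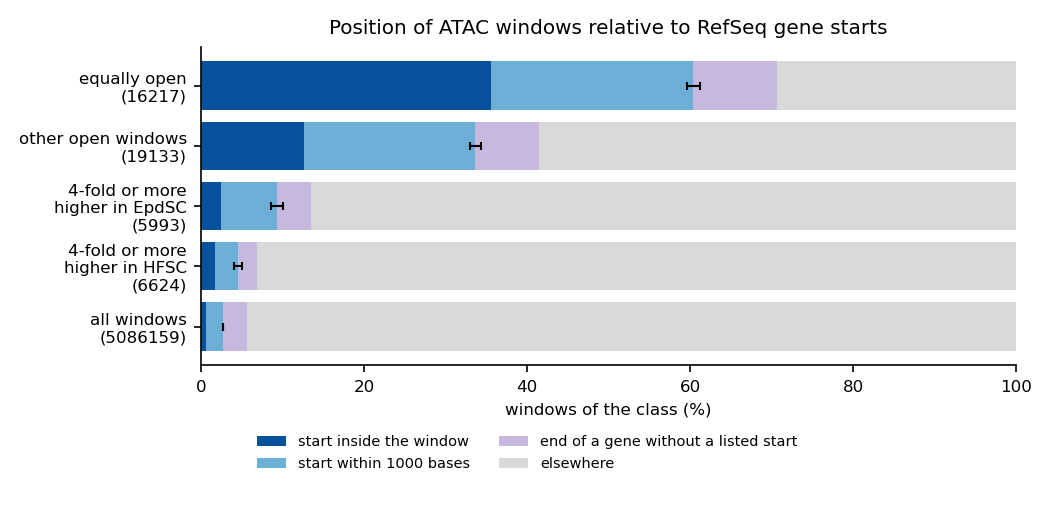
Where windows of each class lie (% of the class, horizontal axis), split into windows that contain a listed start, others within 1000 bases of one, those at an end of a gene without a listed start, and the rest; bars on the boundary are exact 95% binomial intervals of the share within 1000 bases, and counts of windows stand under each class. Chosen windows have 60.4% within 1000 bases of a listed start, against 4.51% of windows 4-fold or more higher in young HFSC and 9.28% of those higher in young EpdSC.

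The strength of the signal and the promoter share rose together. Among windows whose higher young level was 4 to 6 CPM, 18.01% were equally open, and of these 54.8% lay within 1000 bases of a listed start. The equally open share was 40.6% at 6 to 8 CPM, 47.5% at 8 to 12 CPM, 53.8% at 12 to 20 CPM and 50.3% at 20 to 50 CPM. Over the same steps, the promoter share of chosen windows was 56.9, 62.8, 67.7 and 77.4%. It rose over all open windows too, from 29.7% in the lowest step through 34.6, 40.1 and 48.7% to 67.7% in the highest. The lowest step is limited by the rule itself, which asks for 4 CPM in both libraries. At the edges of the rule, the 1735 windows inside it at 4 to 4.4 CPM lay at a listed start in 53.6% of cases and the 1801 windows outside it at 3.6 to 4 CPM in 48.8%. For the ratio, the share was 56.5% of the 1758 windows inside it at 1.4 to 1.5-fold and 50% of the 1228 outside it at 1.5 to 1.6-fold. One of the last windows inside, on chromosome 7 from 35118001 to 35118500, lies 793 bases from the start of Cebpa and held 6.19 CPM in young EpdSC and 4.13 CPM in young HFSC. Just outside, the window on chromosome 3 from 41565001 to 41565500 near Jade1 held 6.99 and 4.66 CPM.

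The 12 strongest windows at gene starts, at or below 50 CPM in every library, held 24.5 to 28.5 CPM in young EpdSC and 34.6 to 40.9 CPM in young HFSC. The strongest, shared by Tomm40 (the channel of the mitochondrial outer membrane) and Gm38955, lies on chromosome 7 from 19715501 to 19716000 and held 28.2 CPM in young EpdSC, 40.9 in young HFSC, 32.2 in aged EpdSC and 21.6 in aged HFSC. At the Ppp2r1a start printed above, the window on chromosome 17 from 20945001 to 20945500 held 27.9, 37.8, 35.1 and 20.4 CPM in the same order. In CPM, all 12 were lower in aged HFSC than in the other 3 libraries. The window beside Sp1, on chromosome 15 from 102405501 to 102406000, held 28.5, 35.7, 33.8 and 19.4 CPM, and that beside Hsp90b1, on chromosome 10 from 86705501 to 86706000, held 24.5, 36.6, 26.9 and 19.5 CPM. The others belong to Ap2a1 (clathrin adaptor), Fam72a with Srgap2, Mon1b and Rab5a (endosome traffic), Dnajb1 (heat shock co-chaperone) with Gm42029, Tle4 (transcriptional co-repressor), Hsd17b12 (fatty acid elongation) and Cep57 (centrosome) with Fam76b. The RNA of genes at these windows is not fixed by the choice. Of the genes at the 4 windows given in full, Tomm40, Ppp2r1a, Sp1 and Hsp90b1, none passed the test between young EpdSC and young HFSC (edgeR adjusted p = 0.0925, 0.0905, 0.454 and 0.11). Srgap2, by contrast, was higher in EpdSC with a log2 difference of 1.48 (SE 0.159, edgeR adjusted p = 2.82e-05). Also higher in EpdSC among genes at the 12 windows were Dnajb1 (1.63, adjusted p = 8e-05), Rab5a (0.64, adjusted p = 0.00731), Mon1b (0.55, adjusted p = 0.035) and Fam72a (1.71, adjusted p = 0.0447), and Cep57 was higher in HFSC (−0.55, adjusted p = 0.0257).

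Of the 8 strongest windows away from listed starts, the first lies on chromosome 1 from 24108001 to 24108500, 7660 bases from the start of Fam135a, and held 29.4 CPM in young EpdSC, 29.96 in young HFSC, 33.3 in aged EpdSC and 16.6 in aged HFSC. The third, 8684 bases from the start of Foxj2, a forkhead transcription factor, held 24.9, 29.7, 28.8 and 14.9 CPM. In 5 of the 8, the window lay at an end of a gene without a listed start, among them Manf (an endoplasmic reticulum stress protein) and Cdk19 (a kinase of the Mediator complex). The 8 windows thus include starts that the list of starts did not hold or finishes of genes, which cannot be told apart here.

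A gene is said to have an equally open start when a chosen window lies within 1000 bases of it. The window need not contain the start: of 8480 such starts, 6896 lay inside a chosen window. The 26794 genes with a listed start were searched, and 7268 of them (27.1%) had a chosen window within 1000 bases. Among the 13130 genes that had a listed start and enough RNA to be tested, the share was 48.0%. In gene lists of general cell functions the share was higher. It was 19 of 19 chaperones, 24 of 25 spliceosome genes, 28 of 30 cytosolic ribosomal protein genes, 18 of 20 chromatin remodelling genes, 15 of 17 translation factors, 20 of 23 proteasome genes, 21 of 25 genes of oxidative phosphorylation, 17 of 21 cell cycle genes, 16 of 20 genes of RNA polymerase II and its general factors and 12 of 22 mitochondrial ribosomal protein genes. Immediate early genes and AP-1 subunits, whose products answer stress and growth signals within minutes, had a chosen window in 19 of 19 cases.

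Examples give the signal behind these counts. The window at Rpl15, which encodes a protein of the large ribosomal subunit, held 16.6 CPM in young EpdSC, 22.8 in young HFSC, 17.9 in aged EpdSC and 10.2 in aged HFSC. The window at Tcp1, a subunit of the chaperonin that folds actin and tubulin, held 23.8, 35.1, 26.1 and 15.9 CPM. At Jun, the partner of Fos in AP-1, the values were 16.9, 20.9, 22.2 and 11.3 CPM. In each of these 3 genes the aged HFSC library was the lowest in CPM.

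Genes that keratinocytes of both kinds use were also covered, while lists that mark 1 population or another lineage were covered less than these. For comparison, the share was 27.1% over all genes with a listed start and 48.0% over those tested by RNA-seq. A chosen window was present at 6 of 7 basal keratinocyte genes with a listed start (Krt5, Krt14, Sfn, Id3, Tfap2a and Epcam), at 10 of 12 genes of hemidesmosomes, integrins and laminins and at 5 of 6 of desmosomes and adherens junctions. In these lists, only 7 of 21, 12 of 18 and 6 of 18 genes had a listed start. The HFSC signature had 5 of 17 (29.4%), and 5 of its starts lay near a window 4-fold or more higher in young HFSC. The EpdSC signature had 7 of 17 (41.2%), and 2 of its starts lay near a window 4-fold or more higher in young EpdSC. Both signature shares lay between those of all listed and of tested genes. A chosen window was also present at 5 of 21 interferon response genes and 2 of 17 suprabasal and cornified envelope genes. No chosen window lay at 7 myeloid, 4 T cell, 7 fibroblast, 7 endothelial, 5 pericyte and 11 neuronal genes, and 2 of 5 melanocyte genes, Mitf and Dct, had one. The window at Krt5, a keratin of basal cells, held 9.67, 11.3, 9.85 and 5.94 CPM in young EpdSC, young HFSC, aged EpdSC and aged HFSC, so it was near even in the young libraries.

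**Figure D3:**
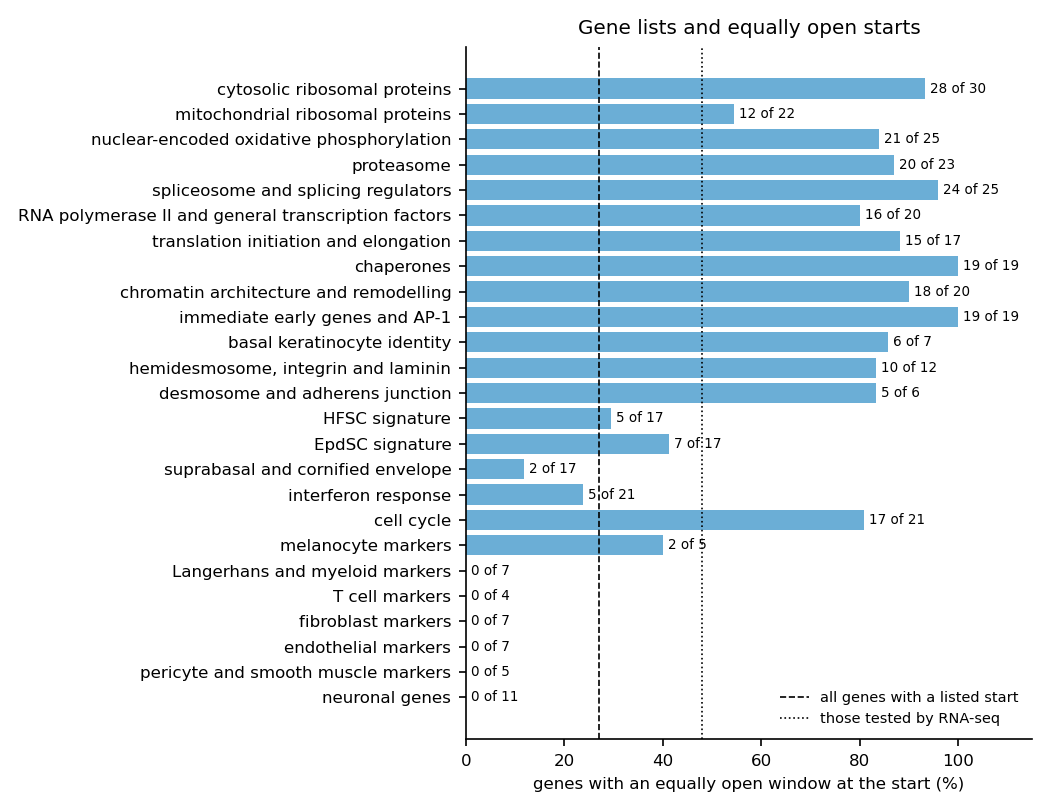
For each gene list (rows), the share of genes with a listed start that have a chosen window within 1000 bases (%, horizontal axis). The dashed line is the 27.1% of all genes with a listed start, and the dotted line the 48.0% of those tested by RNA-seq. Lists of general cell functions lie above both lines, and those of myeloid, T cell, fibroblast, endothelial, pericyte and neuronal genes lie at 0.

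A chosen window within 1000 bases of the start did not mean equal RNA. Of the 7268 genes, 6436 were matched to the RNA tables by symbol and 6301 were tested. Between young EpdSC and young HFSC, 1148 of them (18.2%) were higher in EpdSC and 750 (11.9%) were higher in HFSC at an adjusted p under 0.05 (edgeR quasi-likelihood test, Benjamini-Hochberg adjustment over 21464 genes), beside 13% and 13.1% of all genes tested. The called share was therefore near that of all genes, with more of it on the EpdSC side. Their differences were smaller: the median absolute log2 difference was 0.37, beside 0.56 over genes with a listed start and 0.64 over all genes. Called differences of at least 2-fold numbered 807 (12.8%), beside 17.5% of all genes. Absolute medians were also smaller for age, where few genes were called. They were 0.14 at these genes and 0.27 over all genes in HFSC, and 0.12 and 0.24 in EpdSC. The smaller size is therefore not particular to the comparison of populations. Between the young populations, the median signed log2 difference (EpdSC over HFSC) was 0.12, and over all genes it was −0.061. Leaving out 1 library moved the count of called genes from 1898 to between 1040, without the first young EpdSC library, and 2052. In bulk RNA, fewer cells of a type and less RNA per cell cannot be told apart.

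Starts near population-specific windows differed more in RNA. Of 310 tested genes near a window 4-fold or more higher in young EpdSC, 203 were higher and 10 lower in EpdSC RNA, with a median log2 difference of 1.78. Of 106 near a window 4-fold or more higher in young HFSC, 3 were higher in EpdSC and 83 in HFSC, with a median of −3.23. The sets are described by their counts and medians, and the difference between them was not tested.

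Among genes with equally open starts, the largest differences toward EpdSC were at Man1c1, Serpinb2, Ipmk, Rasa3, Ankrd22 and Lipm. Man1c1, a Golgi mannosidase, was at 127 and 113 RNA CPM in the young EpdSC libraries and at 2.53 and 2.40 in young HFSC, a log2 difference of 5.60 (SE 0.226, edgeR adjusted p = 2.38e-08). Its window held 9.27 ATAC CPM in young EpdSC and 8.64 in young HFSC, near even. Serpinb2, an inhibitor of plasminogen activators, was at 1046 and 1032 RNA CPM in EpdSC and at 81.7 and 18.9 in HFSC (log2 difference 4.37, SE 0.536, adjusted p = 8.09e-05), while its window held 4.85 and 4.05 ATAC CPM. Ipmk, an inositol phosphate kinase, was at 461 and 353 RNA CPM in EpdSC and 23 and 21.4 in HFSC, with 14.3 ATAC CPM in both young libraries. For Rasa3, a GTPase-activating protein of Ras family proteins, the log2 RNA difference was 4.18 (SE 0.231, adjusted p = 1.53e-07), and its window was the higher in HFSC, at 14.4 CPM in young EpdSC and 17.7 in young HFSC. Ankrd22 (log2 difference 4.13) and Lipm (4.10), an epidermal lipase, overlap at their ends on chromosome 19, so reads in the overlap cannot be assigned to 1 of them.

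Toward HFSC, the largest differences were at Strip2, Fgf18, Mfge8, Diras2, Bmp6 and Id2. Strip2, a component of phosphatase complexes that shape the actin cytoskeleton, was at 60.7 and 91.6 RNA CPM in young HFSC and at 0.118 and 0.230 in young EpdSC, a log2 difference (EpdSC over HFSC) of −8.76 (SE 0.372, edgeR adjusted p = 3.22e-08). Its window held 4.18 ATAC CPM in young EpdSC and 5.66 in young HFSC. Fgf18, a growth factor that holds hair follicles in their resting phase, was at 15.2 and 13.5 RNA CPM in HFSC and at 0 and 0.296 in EpdSC (log2 difference −6.63, SE 0.696, adjusted p = 2.41e-05), with 4.39 and 5.39 ATAC CPM in young EpdSC and young HFSC. Both windows lay close to the 4 CPM minimum. Id2, an inhibitor of basic helix-loop-helix factors and a target of BMP signals, was at 204 and 190 RNA CPM in HFSC and at 6.18 and 7.80 in EpdSC (log2 difference −4.82, SE 0.351, adjusted p = 1.29e-06), and its window held 14.8 ATAC CPM in young EpdSC and 21.1 in young HFSC. Bmp6, a BMP ligand made in the bulge, differed by −4.86 (SE 0.739, adjusted p = 0.000424), with 15.3 and 6.02 RNA CPM in HFSC and 0.088 and 0.658 in EpdSC. In all 12 genes named in these comparisons, the libraries of both populations did not overlap, which the rule for naming them required.

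**Figure D4:**
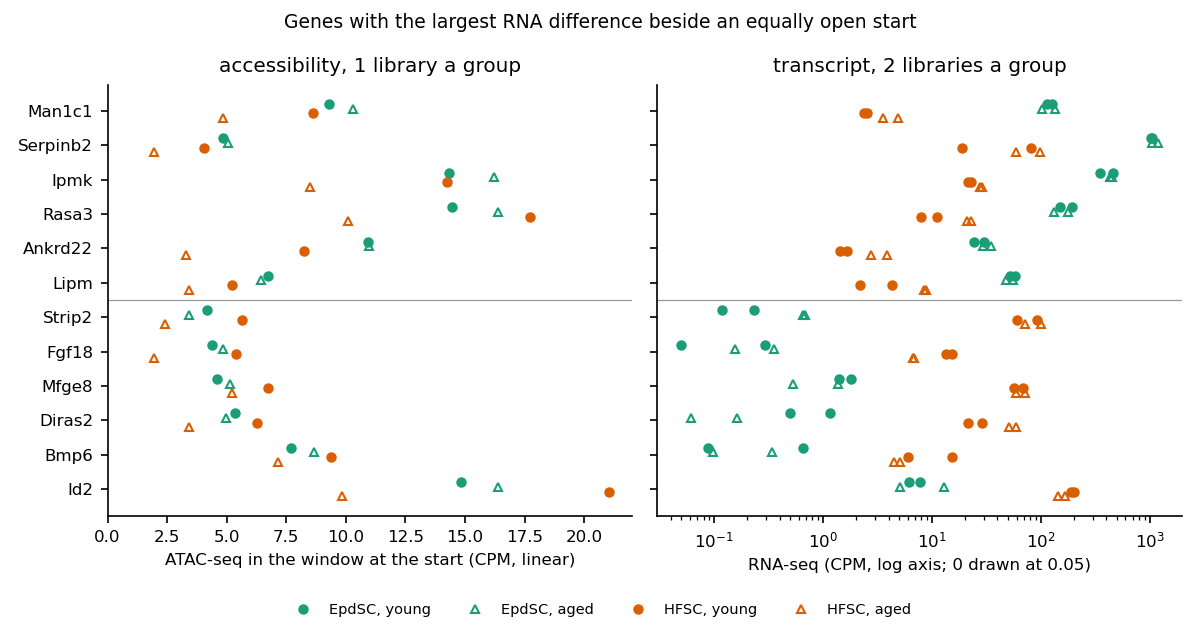
ATAC CPM at the window (left) and RNA CPM (right, log axis) for the named genes, with 1 point per library, filled for young and open for aged, and 0 drawn at the left edge. ATAC points of the young libraries lie within 1.5-fold of each other by the rule, while RNA points of EpdSC and HFSC lie far apart, as for Man1c1 at 127 and 113 against 2.53 and 2.40.

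The presence of a 4-fold window within 50 kb of the start differed with the direction of the RNA. The distance had no inner limit, so windows at or beside the start are counted as well. Of the 1148 genes with an equally open start and more RNA in young EpdSC, 44.6% had a window 4-fold or more higher in young EpdSC within 50 kb of the start and 13.2% had one higher in young HFSC. For the 750 genes with more RNA in HFSC the shares were 18% and 35.7%, and for the 4403 genes that did not pass they were 21.6% and 13.0%. Restricting to called RNA differences of at least 4-fold gave 76.1% and 9.09% for 88 EpdSC-higher genes and 11.8% and 50.7% for 136 HFSC-higher genes. Conversely, among the 3952 tested genes with an equally open start and no 4-fold window within 50 kb, 552 were higher in EpdSC and 393 in HFSC, 23.9% in all, beside 26.1% of all genes tested and 30.1% of those with an equally open start. The genes were sorted here by RNA and the windows by the young ATAC libraries, so no test is given.

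Over all genes tested, 13% were higher in young EpdSC and 13.1% in young HFSC, and in aged cells 12.2% and 11.9%. For genes with equally open starts the shares were 18.2% and 11.9%, and in aged cells 17.3% and 9.52%. By function, beside these shares, most members of the immediate early and AP-1 list were called. Of its 19 genes with equally open starts, 16 were higher in young EpdSC and 2, Ier3 and Maff, were higher in young HFSC, with a median log2 difference of 1.80. Jun was at 999 and 879 RNA CPM in young EpdSC and at 249 and 131 in young HFSC (log2 difference 2.30, SE 0.252, edgeR adjusted p = 3.26e-05). In aged cells, 16 of the 19 were higher in EpdSC and 1 in HFSC, with a median of 1.91. Among 19 chaperones, 12 were higher in young EpdSC and 0 lower, with a median of 0.53, and in aged cells 5 and 0, with a median of 0.29. Dnajb1 was at 349 and 256 RNA CPM in EpdSC and at 102 and 93.2 in HFSC, a log2 difference of 1.63 (SE 0.2, adjusted p = 8e-05). For 15 translation factors, 10 were higher and 0 lower in young EpdSC (median 0.57) and 5 and 0 in aged EpdSC (median 0.45). For 28 cytosolic ribosomal protein genes the counts were 16 and 0 in young (median 0.50) and 17 and 0 in aged cells (median 0.51). DESeq2 likewise called 0 of these 3 lists lower. Rpl15 was at 203 and 196 CPM against 128 and 153 (log2 difference 0.51, adjusted p = 0.0313). Ribosomal protein genes have many processed copies in the genome, so their counts are uncertain.

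Smaller shares were called in the other lists of general function. Beside 13% of all genes and 18.2% of genes with equally open starts, 9 of 24 spliceosome genes, 6 of 18 chromatin genes, 5 of 21 oxidative phosphorylation genes, 4 of 20 proteasome genes, 4 of 15 tested genes of RNA polymerase II and 1 of 12 mitochondrial ribosomal protein genes were higher in young EpdSC, and both edgeR and DESeq2 called 0 members of these lists higher in HFSC. Of 17 cell cycle genes, 6 were higher in EpdSC and 1 in HFSC. Basal keratinocyte genes split, with Krt5, Krt14 and Sfn higher in EpdSC and Id3 higher in HFSC. Krt5 was at 6372 and 5907 RNA CPM in young EpdSC and at 3265 and 3693 in young HFSC (log2 difference 0.82, SE 0.155, edgeR adjusted p = 0.00202). Of 10 genes of hemidesmosomes, integrins and laminins, only Itga3, the α chain of a laminin receptor, was called by edgeR. Its log2 difference was 0.74 (edgeR adjusted p = 0.0113), and without a composition factor 1 gene was called in each direction. Itgb1, the partner chain of Itga3, was at 392 and 348 CPM in EpdSC and at 402 and 334 in HFSC. Itga6 and Itgb4 had no listed start, so they are not among the 10.

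Identity genes with an equally open start mostly followed their population in RNA. Of 5 such HFSC signature genes, 4 (Fgf18, Gli3, Lmo1 and Tcf7l2) were higher in young HFSC, and Nfix was at 278 and 296 RNA CPM in EpdSC and at 253 and 305 in HFSC. Tcf7l2, a transcription factor of the Wnt pathway, was at 41.8 and 37.1 RNA CPM in HFSC and at 12.5 and 9.80 in EpdSC (log2 difference −1.82, SE 0.183, edgeR adjusted p = 1.69e-05), while its window held 5.92 ATAC CPM in young EpdSC and 5.27 in young HFSC. Of 7 EpdSC signature genes, 5 (Cebpa, Fgfr3, Gata3, Klf4 and Notch1) were higher in EpdSC and Jag1, a Notch ligand, was higher in HFSC, at 444 and 476 RNA CPM against 184 and 180. Klf4 is in the immediate early list as well. The 2 suprabasal genes split: Abca12, a lipid transporter of the skin barrier, was at 158 and 143 RNA CPM in EpdSC and at 11.5 and 14.2 in HFSC, and Sbsn was at 37.3 and 38.8 in EpdSC and at 107 and 110 in HFSC. The 2 signature lists were made from known markers of the populations, so their direction is not independent evidence. Among 5 interferon genes, Bst2, Psmb9 and Tap1 were higher in young EpdSC by edgeR, and DESeq2 called Psmb9 and Tap1 but not Bst2. Psmb9 and Tap1, a proteasome subunit and a peptide transporter of antigen presentation, share 1 window of 11.8 and 10.2 ATAC CPM in the young libraries.

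Markers of other cells also differed between the populations. Mitf, at 195 and 239 RNA CPM in young HFSC and 8.56 and 14.9 in young EpdSC, and Dct, at 8.66 and 11.2 against 0.529 and 0.230, were higher in HFSC. The summed RNA of the 8 melanocyte markers, mostly Mitf, was 223 to 263 CPM in young HFSC and 11.6 to 18.1 in young EpdSC. Under 1 CPM were 2 and 6 of the 8. For 10 fibroblast markers the sums were 684 to 757 CPM in young HFSC and 63.3 to 74.5 in young EpdSC. Under 1 CPM were 4 and 7 of the 10. Other sums were higher in young EpdSC. Pericyte and smooth muscle markers came to 12.5 to 21.1 CPM in young HFSC and 85.6 to 87.7 in young EpdSC, with 5 of 8 under 1 CPM in both. For 10 T cell markers the sums were 5.37 to 7.71 and 44.3 to 46.2, with 8 and 9 under 1 CPM, so the EpdSC sum rested on 1 gene. For 10 Langerhans cell and myeloid markers they were 8.79 to 12.0 and 24.8 to 28.0, with 7 under 1 CPM in both. Their part in the RNA differences was not tested. Except for Mitf and Dct, none of the markers with a listed start had a chosen window.

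At 24 months, how many of the chosen windows were equally open depended on the scaling. In CPM, their median was 7.76 in aged EpdSC and 3.76 in aged HFSC, after 7.21 in young EpdSC and 7.26 in young HFSC. At least 4 CPM was held by 16153 windows (96.7%) in aged EpdSC and 7791 (46.7%) in aged HFSC, and no window was at 0 in either. In 2229 of 16699 (13.3%, exact 95% binomial interval 12.8 to 13.9%) the aged EpdSC and aged HFSC levels lay within 1.5-fold, beside 14.7% of all open windows. The median ratio (EpdSC over HFSC) was 2.03, with quartiles of 1.69 and 2.50. Aged HFSC held a median of 31 counts per chosen window, against 178 in aged EpdSC, so single windows are imprecise there. The interval of the ratio lay wholly above 1.5-fold toward EpdSC in 6646 windows and wholly beyond it toward HFSC in 16.

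After TMM scaling, 13714 chosen windows (82.1%, interval 81.5 to 82.7%) lay within 1.5-fold between the aged libraries, beside 43.6% of all open windows. The median ratio was 0.957, with quartiles of 0.795 and 1.18. Of the rest, 1384 were higher in EpdSC and 1601 in HFSC, and the interval lay wholly outside 1.5-fold in 68 and 125 windows. Because TMM takes most open windows as alike, and chosen windows are many of them, the level of the median is set in part by the scaling, but the narrow spread around it is not. A 4-fold difference toward EpdSC was seen in 401 chosen windows in CPM (2.40%, beside 20.9% of open windows) and in 6 after scaling (0.0359%, beside 7.24%). Toward HFSC it was seen in 0 in CPM (beside 9.48%) and in 18 after scaling (0.108%, beside 14.1%). The windows 4-fold or more higher in young HFSC had a median ratio of 0.0714 in young CPM, 0.146 in aged CPM and 0.0689 in aged cells after scaling. Those higher in young EpdSC had 7.93, 8.63 and 4.06 in the same order. The scaled aged median thus lay nearer the young one for HFSC-higher windows, and the unscaled one did so for EpdSC-higher windows.

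**Figure D5:**
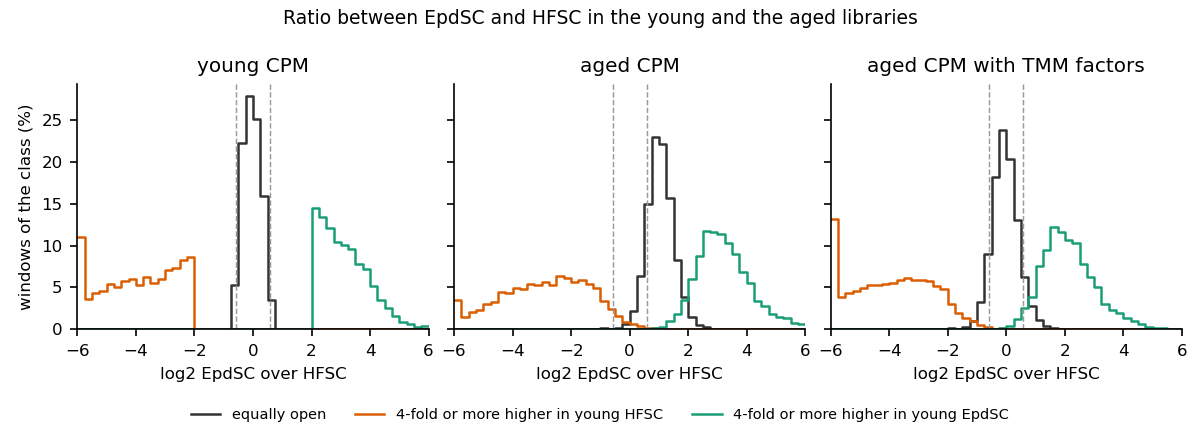
Distribution of the log2 ratio of EpdSC over HFSC (horizontal axis) as the share of windows in each bin (%, vertical axis), in young CPM, aged CPM and aged CPM after TMM scaling, for chosen windows and for windows 4-fold or more higher in either young population; dashed lines mark 1.5-fold and the outermost bins hold all values beyond the axis. Chosen windows form 1 narrow peak whose aged median ratio moves from 2.03 in CPM to 0.957 after scaling.

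The order of the shares within 1.5-fold at and away from gene starts depended on the scaling, but the spread was narrower at starts on both scales. After scaling, 86.6% of 9797 windows at listed starts and 75.3% of 6420 away from them lay within 1.5-fold in aged cells, and the 4-fold differences at starts numbered 0 in both directions. In CPM the shares were 11.1% and 16.7%. Both CPM medians of the ratio, 2.02 at starts and 2.05 away from them, lay beyond 1.5-fold. Quartiles in CPM were 1.72 and 2.45 at starts and 1.64 and 2.59 away from them. After scaling they were 0.807 and 1.15 at starts and 0.772 and 1.22 away from them. Aged against young, the median log2 ratio of the chosen windows was 0.11 in EpdSC and −0.96 in HFSC in CPM, beside 0.053 and −0.89 for all open windows. A 2-fold or larger drop in aged HFSC was seen in 7513 (45.0%, beside 40.5% of open windows), and in aged EpdSC in 5 (0.0299%, beside 1.95%). TMM scaling brought the medians to 0.037 and −0.051 and the drops to 207 (1.24%, beside 3.05%) and 10 (0.0599%, beside 2.21%). The drop in CPM was a little larger where the young signal was higher: the HFSC median was −0.91 at a mean young signal of 4 to 6 CPM and −1.02 at 12 to 50 CPM, while the EpdSC median was 0.066 and 0.17.

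Among windows at starts with at least 20 counts in both aged libraries, the largest excess in aged EpdSC was at Nrm, a protein of the nuclear envelope, on chromosome 17 from 35861001 to 35861500. It held 11.7 CPM in young EpdSC, 7.83 in young HFSC, 16.5 in aged EpdSC and 2.67 in aged HFSC, an aged ratio of 6.18 (exact interval 4.02 to 9.97) and of 2.91 after scaling. Both metallothionein genes, whose products bind zinc and copper, were in this group. The window at the Mt2 start printed above held 14.5, 13.1, 16.0 and 2.79 CPM (aged ratio 5.72, interval 3.75 to 9.14, scaled 2.69), and one near Mt1 held 14.7, 12.5, 15.3 and 3.03 CPM (5.03, scaled 2.37). At Sox21, a transcription factor of hair and epidermis, 2 adjoining windows had aged ratios of 5.15 and 4.70, and at the kinase gene Vrk2 the ratio was 4.84. Counts in aged HFSC were 22 to 34 in these 6 windows. In RNA of young cells, not of the age that gave these ratios, Mt2 and Sox21 were higher in EpdSC. Their log2 differences were 1.66 (edgeR adjusted p = 0.000391) and 2.51 (adjusted p = 9.68e-07). The RNA of the other genes is not given here.

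At the other end, the lowest aged ratios were near 1 in CPM and below 0.42 after scaling. The window at Gm47990 held 4.29, 4.62, 4.10 and 4.97 CPM in young EpdSC, young HFSC, aged EpdSC and aged HFSC, a ratio of 0.824 (interval 0.565 to 1.22; scaled 0.388). One near Itpr3, a calcium channel of the endoplasmic reticulum, held 4.10, 5.24, 4.06 and 4.85 CPM (ratio 0.836, scaled 0.393). Creb3l4, Lin7b, 1700061I17Rik and Tspan9 had ratios of 0.879, 0.882, 0.885 and 0.888. In all 6 the unscaled interval included 1, and the young levels lay between 4.10 and 8.37 CPM. Creb3l4 had 20.5 and 23.5 RNA CPM in young HFSC and 1.47 and 1.41 in young EpdSC, a log2 difference of −3.93 (SE 0.236, edgeR adjusted p = 2.83e-07), and Tspan9 did not pass (adjusted p = 0.231).

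In aged cells the RNA at equally open starts differed between the populations as well. Of the 6301 genes, 1093 (17.3%, beside 12.2% of all genes) were higher in aged EpdSC and 600 (9.52%, beside 11.9%) in aged HFSC. Without the first aged EpdSC library, 1101 in place of 1693 were called. Of the 12 genes with the largest differences, the aged comparison added Lrrc8b (a volume-regulated anion channel subunit, log2 difference 4.06), Plcxd2 (3.73) and Trim7 (a ubiquitin ligase, 3.66) toward EpdSC and Ephb1 (an ephrin receptor, −5.06) and Sdk1 (an adhesion molecule, −4.35) toward HFSC. Man1c1 was at 134 and 103 RNA CPM in aged EpdSC and at 3.55 and 4.87 in aged HFSC.

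With age, few of these genes passed the test. In HFSC, 5 genes (0.0794%, beside 0.294% of all genes) were higher and 4 (0.0635%, beside 0.0745%) lower at 24 months. The count of 9 was 67 with DESeq2, 128 without a filter on low counts and 0 to 28 with 1 library left out, so it rests on these settings. Lbh, a transcription cofactor, was at 7.59 and 8.26 RNA CPM in young HFSC and at 19.8 and 32.7 in aged HFSC (log2 difference 1.73, SE 0.303, edgeR adjusted p = 0.0411). B2m, the light chain of MHC class I, was at 282 and 307 and then at 554 and 1135 (1.52, SE 0.257, adjusted p = 0.0363). Rasa3 was at 7.89 and 11.1 and then at 21.0 and 22.97 (1.21, adjusted p = 0.0411), and Junb, an AP-1 subunit, at 82.7 and 62.1 and then at 168 and 145 (1.11, adjusted p = 0.0317). The lower genes included Plxna2, a semaphorin receptor (−1.17, adjusted p = 0.036), Fzd5, a Wnt receptor (−1.08, adjusted p = 0.0218), the survival gene Bcl2 (−0.99, adjusted p = 0.0267) and the zinc finger gene Hivep2 (−0.89, adjusted p = 0.024). Fzd5 was at 53.5 and 56.8 RNA CPM in young HFSC and at 26.9 and 25.2 in aged HFSC. None of these 8 passed without the second aged HFSC library, or when only the 4 HFSC libraries were fitted.

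In EpdSC, edgeR called 0 of the 6301 genes higher and 0 lower with age, beside 0.0559% and 0.028% of all genes. At an unadjusted p under 0.05 there were 199, and DESeq2 called 13 after adjustment. For the difference between the age effects in HFSC and EpdSC, edgeR also called 0 in either direction (beside 0.00466% and 0%), with 151 at an unadjusted p under 0.05 and 11 called by DESeq2. The age calls in HFSC are therefore not shown to differ from EpdSC.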

How the data were processed

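The authors deposited whole-number ATAC-seq counts in 500-base windows every 250 bases, and whole-number RNA counts per gene. Per the submitters' processing notes, Bowtie, STAR, Cell Ranger and mm10 were used; for their versions, removal of duplicates, shifting of reads, strand and annotation, no source used here states them. From the deposited counts, every second window (5267565 of 10923515) was kept and CPM computed. RNA libraries held 25126808 to 35905505 counts over 47729 genes. The 8 RNA libraries were fitted together with edgeR 4.0.16 (R 4.3.3, TMM, filterByExpr, limma 3.58.1), 21464 genes were tested, and DESeq2 1.42.0 was an alternative. RNA log2 differences come with standard errors from the fit, and a biological coefficient of variation of 0.277 was shared by all groups. Windows were placed, and matched by symbol, with RefSeq tables of GRCm38.p6; 1 chromosome had no listed starts, so its 482 chosen windows were left out of promoter shares. Python 3.11.15 with numpy 2.4.6, pandas 2.3.3, scipy 1.17.1 and matplotlib 3.10.9 did the rest, with 0.5 added to counts in log ratios of windows. Both statistical scripts were tested on simulated data.

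The windows and gene lists were chosen with earlier results of these data known. Named windows were the 12 strongest at and 8 strongest away from starts, up to 50 CPM in every library, and the 6 highest and 6 lowest aged ratios with at least 20 counts; named genes had the largest called differences, at least 5 CPM on average where higher and libraries that did not overlap, up to 6 per direction between populations and 4 with age. In list examples, the members with the highest young ATAC signal were preferred; Srgap2, Itgb1, Nfix, Mitf, Dct, Psmb9 and Tap1 were singled out after their values were seen. Deviations of same-numbered RNA libraries had correlations of −0.21 to 0.17, which cannot exclude pairing. The numbers were not used as a block in the main fit. Other levels, ratios, distances, filters and scalings, and each RNA library left out in turn, were tried as alternatives.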

Additional observations from a re-analysis of the deposited data

Results flagged for a closer look

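The change of the chosen windows from the young to the aged library differed between the 2 populations in unscaled CPM. The median log2 ratio of aged over young CPM was 0.11 in EpdSC and −0.96 in HFSC. The difference was not tested, since each group had 1 library. After TMM scaling the medians were 0.037 and −0.051. The aged HFSC library, which held 15.6% of its counts in open windows and 8243611 counts in all, was the lowest in both, and its part in the difference cannot be told apart from that of age.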

How the results depend on the processing

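Each ATAC-seq value rests on 1 library a group, and a median of 31 counts in aged HFSC limits single windows. The list of starts was incomplete. TMM scaling moved the aged median ratio (EpdSC over HFSC) of the chosen windows from 2.03 to 0.957. Their aged share within 1.5-fold moved from 13.3%, beside 14.7% of open windows, to 82.1%, beside 43.6%. At and away from starts this share moved from 11.1% and 16.7% to 86.6% and 75.3%. The quartiles of the ratio were closer together at starts on both scales. No named gene changed direction under an RNA alternative. With a minimum of 2 CPM, of 8 CPM, or the narrower ratio limit tried, 29616, 5671 and 11010 windows were chosen. The promoter share was then 52.5, 67.5 and 61.7%; it was 57.9% with a limit of 2-fold, 61.3% when TMM-scaled CPM chose the windows, 56.6 and 64.1% with 500 and 2500 bases in place of 1000, and 70.7% with ends of genes lacking a listed start (an alternative added after seeing the data). The aged share within the limit was 18.3, 9.26 and 10.8% under the first 3 settings, 17.2% at 2-fold, 83.6% with TMM from the choice on, 82.1% with TMM after the choice (added after seeing the data), 14.1% with a pseudocount and 15.3% for windows with 20 counts. The median log2 of aged over young in EpdSC was 0.082, 0.14 and 0.10 under the first 3, 0.038 with TMM from the choice on and 0.037 with TMM after it; in HFSC it was −0.91, −1.01 and −0.95, −0.97 at 2-fold, −0.98 without the pseudocount, and −0.047 and −0.051 with the 2 uses of TMM.

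For RNA at equally open starts, a minimum of 8 CPM left 927 called genes between young populations and 838 between aged ones. Leaving out each library in turn gave 1040 to 2052 and 1101 to 1849 called genes, the lone library of a group then being assumed to vary like the other groups. The 9 genes called with age in HFSC became 128 without a filter on low counts, 5 with a 1 CPM filter, 67 with DESeq2, 0 with only the 4 HFSC libraries, 4 at a minimum of 8 CPM and 0 to 28 with a library left out. The 0 called with age in EpdSC became 53 without a filter, 13 with DESeq2, 2 at a minimum of 2 CPM and 0 to 2 with a library left out. For the difference between the age effects, 0 became 29, 11 with DESeq2 and 0 to 7. Of the 8 named age genes, none passed without the second aged HFSC library, Junb and Bcl2 did not pass without the first, Lbh, B2m, Rasa3, Plxna2 and Bcl2 did not without the first young HFSC library, and Lbh, B2m and Junb did not without the second. Lbh, B2m and Plxna2 did not pass with the 1 CPM filter, nor Plxna2 without a composition factor.

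Whether the replicate numbers pair the samples is not known. Correlations of −0.21 to 0.17 between same-numbered libraries cannot exclude it with 2 libraries a group. With the number as a replicate block, 2037 genes were called between young populations, 1836 between aged ones, 25 with age in HFSC, 1 with age in EpdSC and 0 for the difference. The difference between the age effects could not be fitted with only 4 libraries.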

Other observations

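Equally open windows often adjoined each other. The 16699 windows formed 10903 runs of adjoining windows, of which 6300 held a single window and the longest held 10, and 62.3% of the windows lay in runs of more than 1. By chromosome, chromosome 11 had the most, at 5.03 per 1000 windows, and X the fewest, at 0.865 per 1000. On X, 296 of its 619 open windows (47.8%) were equally open, beside 33.7% over all chromosomes.

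In all, 7 chosen windows exceeded 50 CPM in a library and were higher in aged HFSC than in the other 3 libraries. Of these, 5 lay on chromosome 2 between 98662001 and 98667500, and the strongest of them held 105 CPM in young EpdSC, 109 in young HFSC, 122 in aged EpdSC and 243 in aged HFSC. Another lay on chromosome 6 from 103649001 to 103649500, in the body of Chl1, and held 23.9, 35.0, 28.2 and 62.0 CPM in the same order. The last lay on chromosome 9 from 35305001 to 35305500 and held 27.03, 28.0, 31.1 and 61.0 CPM. The aged ratio (EpdSC over HFSC) in the group was 0.449 to 0.541, opposite in direction to the median of the chosen windows in CPM. All other chosen windows reached at most 29.4 CPM in young EpdSC, 40.9 in young HFSC, 35.1 in aged EpdSC and 25.6 in aged HFSC. No window was left out of the choice for unusually high signal. Whether reads were placed correctly in these 7 windows cannot be seen from the counts, and the cause was not tested.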
